A study of Homo sapiens with 6 samples.

Results

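The genes examined were those of the mitochondrial respiratory chain, in RNA sequencing libraries of HCT116 cells, an established human colorectal cancer line. Members were the rows of the gene count tables whose symbols follow the naming of chain subunits (MT-ND, MT-CO, MT-ATP and MT-CYB for the mitochondrial genome; NDUFA, NDUFB, NDUFC, NDUFS, NDUFV, UQCR, SDHA to SDHD and COX4 to COX8 for the nucleus) and that held at least 60 reads over the 6 libraries. Of 56638 gene rows, 168 matched these patterns and 84 held enough reads. Of the 84 others, 56 held 0 reads. The 84 members comprised 13 rows of the mitochondrial genome and 71 nuclear rows, all of which also passed the filter on low counts. The nuclear rows were 61 subunits, 7 pseudogenes of subunits, 2 paralogues that are not structural subunits (NDUFA4L2 and COX7A2L) and 1 antisense transcript (NDUFA6-AS1). Among the rows that matched, total reads were the only measured value that decided membership. They were 69 for COX6CP1, 70 for COX7A1 and 90 for COX5BP6 just above the minimum. Just under it were 42 for COX7A2P1, 34 for NDUFB8P2 and 16 for NDUFB2-AS1. The patterns themselves were chosen with earlier results of these data known.

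The study compared 3 libraries labelled ZFP90 KO with 3 labelled control. Guides against exon 3 of ZFP90, which encodes a KRAB zinc-finger protein, made the knockout alleles. Both groups were HCT116 cells at passages 16 to 19, and each library started from 1 µg of total RNA. The labels name no clone, no guide or treatment of the control cells, and no separate cultures. The tests therefore weigh differences against the spread of 3 libraries a group, part or all of which may be technical.

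The respiratory chain passes electrons from NADH and succinate to oxygen through complexes I to IV of the inner mitochondrial membrane, and the proton gradient this builds drives ATP synthase, also called complex V. Its subunits come from both genomes: the mitochondrial genome encodes a few hydrophobic core proteins of complexes I, III, IV and V, transcribed as long polycistronic RNAs from both strands and then cut into single messengers, while the nucleus encodes all of complex II and the rest of the others. The 13 mitochondrial members belong to complex I (7), complex III (1), complex IV (3) and ATP synthase (2). The 61 nuclear subunits belong to complex I (36), complex II (4), complex III (8) and complex IV (13, with NDUFA4, which is a subunit of complex IV despite its name). The patterns miss the subunits NDUFAB1 and CYC1, which are given with the wider pathway.

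Between 13424356 and 17012910 reads fell in genes per library. ZFP90 itself stood at 86.9, 80.5 and 89.8 CPM (read counts scaled to a common library size with TMM factors) in the libraries labelled KO, against 47.5, 47.4 and 43.1 CPM in controls (log2 fold change 0.90, SE 0.066; edgeR quasi-likelihood test, adjusted p = 5.1e-05). The targeted RNA was thus higher under the KO label, and counts of a whole gene cannot tell an intact reading frame from a broken one. Directions are therefore given for the libraries as labelled, written as KO-labelled. EPCAM, a surface protein of epithelium, lay between 337 and 361 CPM in every library, and 8 of 11 markers of colorectal epithelium passed the count filter. Of the leukocyte markers 0 of 8 did, at a summed 1.51 to 1.84 CPM in KO-labelled libraries and 1.54 to 1.64 CPM in controls. Of the fibroblast and endothelial markers 6 of 10 passed. The 10 had summed levels of 76.9 to 98.8 CPM in KO-labelled libraries and 77.5 to 98.0 CPM in controls. Most of each sum came from the collagen gene COL1A1. The epithelial keratin gene KRT18 (log2 fold change -0.23) and the smooth muscle actin gene ACTA2 (-0.69, at 1.13 CPM in KO-labelled libraries and 1.83 CPM in controls) were called lower, and their part in the results was not tested. The call of ACTA2 ended with any 1 library left out (highest edgeR adjusted p 0.125), and that of KRT18 without Control replicate 3 or KO-labelled replicate 2 or 3 (highest 0.132).

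Control replicate 2 stood apart before any comparison. It held 3.85% of its gene reads in the 13 mitochondrial members, where controls 1 and 3 held 6.72% and 6.75%, so mitochondrial reads were fewer there but not absent. Its deficit also reached chromosomes 6, 7, 8, 9 and X, where 12 of the 61 nuclear subunits lie. The main comparisons are given with and without this library.

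Sequences of 2 gene pairs are shown, of which the first bears on how reads were assigned. The first pair sets a 60-base stretch of MT-ATP6 (chrM:8642-8701, plus strand), a subunit of ATP synthase, beside the same stretch of its nuclear copy MTATP6P1 (chr1:633811-633870, plus strand), both from the GENCODE release 29 transcripts on GRCh38. Capitals mark the bases that differ.
MT-ATP6: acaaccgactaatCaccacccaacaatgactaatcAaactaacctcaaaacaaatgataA
MTATP6P1: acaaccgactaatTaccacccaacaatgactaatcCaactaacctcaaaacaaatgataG
Over all 681 bases the 2 genes differed at 10 positions (98.5% identity), with a longest identical run of 141 bases. Reads that lie wholly in an identical run match both copies, so the levels of both are uncertain.

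The second pair is COX6B2 and COX6B1, the testis and the ubiquitous form of the same complex IV subunit, shown because their RNA behaved differently. The 250 bases before each start come from RefSeq on GRCh38.p14, for COX6B2 at chr19:55354720-55354969 on the minus strand and for COX6B1 at chr19:35648073-35648322 on the plus strand. Capitals mark the letters of a CCAAT box (CCAAT) or an ETS site (CCGGAAG) on either strand.
COX6B2: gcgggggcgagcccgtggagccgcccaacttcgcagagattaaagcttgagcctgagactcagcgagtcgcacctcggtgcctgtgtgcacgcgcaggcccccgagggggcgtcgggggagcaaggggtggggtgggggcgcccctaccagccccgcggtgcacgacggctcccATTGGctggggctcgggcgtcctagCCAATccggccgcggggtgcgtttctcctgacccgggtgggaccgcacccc
COX6B1: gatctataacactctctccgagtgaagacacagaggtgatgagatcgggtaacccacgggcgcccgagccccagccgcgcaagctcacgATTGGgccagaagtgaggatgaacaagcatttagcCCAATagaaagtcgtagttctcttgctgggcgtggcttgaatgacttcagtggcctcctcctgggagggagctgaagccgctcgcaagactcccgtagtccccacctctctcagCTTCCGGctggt
Both windows held CCAAT on each strand, and an ETS site was found in that of COX6B1 alone. That ETS site and the CCAAT matches of COX6B2 lay past the GENCODE starts. All are matches of letters and not measured binding sites.

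UQCR11, a small subunit of complex III that was called higher, is shown for the motifs known from respiratory gene promoters. Its 250 bases before the start (RefSeq, GRCh38.p14, chr19:1605463-1605712, minus strand) hold the NRF1 motif, the ETS site and the hypoxia element, all in capitals.
UQCR11: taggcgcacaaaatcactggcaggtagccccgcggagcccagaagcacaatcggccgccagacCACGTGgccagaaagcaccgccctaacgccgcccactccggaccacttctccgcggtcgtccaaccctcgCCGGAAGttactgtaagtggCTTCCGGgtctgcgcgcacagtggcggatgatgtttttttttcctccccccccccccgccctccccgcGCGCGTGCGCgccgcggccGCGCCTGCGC
Motifs were searched on both strands in the RefSeq windows that reach 250 bases before and 50 after a start. Such windows were found for 51 of the 61 nuclear subunits (59 windows), and COX6C, NDUFB9, NDUFC2, NDUFS5, SDHC and UQCRB, among those described here, are named only. The NRF1 motif (GCGCA, any base, GCGC), which binds a known activator of respiratory genes, was in 20.3% of the subunit windows and 5.78% of all 35116 windows. The ETS site (CCGGAAG), which includes binding sites of GABP, another known activator, was in 25.4% and 10.3%. The CCAAT box (CCAAT) was in 30.5% and 34.6%, and the hypoxia element (ACGTG, whose 2 strands overlap in the UQCR11 window) in 23.7% and 21.4%.

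All 13 mitochondrially encoded members were higher in the KO-labelled libraries by log2 fold change, with a median of 0.58 (range 0.34 to 0.76) against 0.008 over all genes tested. With all 6 libraries, 2 of the 13, MT-ND1 and MT-ND6, were called higher (edgeR quasi-likelihood test, Benjamini-Hochberg adjusted p under 0.05 over all genes), where 9.73% of all 16369 genes tested were called higher. Without Control replicate 2, 12 of the 13 were called higher, all but MT-ATP8, against a background of 13.5%, and the median fold change was smaller at 0.34 (range 0.21 to 0.52; 0.001 over all genes). In 12 of the 13, the lowest KO-labelled library lay above the highest control, as it did for 20.9% of all genes tested. The 13 are cut from shared RNAs and moved together, so these counts do not stand for 13 separate observations.

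The 7 mitochondrial genes of complex I encode membrane subunits of its proton-pumping arm. MT-ND1, at the junction with the matrix arm, stood at 2984, 2859 and 3068 CPM in KO-labelled libraries, against 2242, 1366 and 2369 CPM in controls. MT-ND6 stood at 1105, 1092 and 1174 CPM in KO-labelled libraries, against 795, 421 and 774 CPM in controls. In both genes the 3 KO-labelled libraries lay close together and the groups did not overlap, with Control replicate 2 lowest by far. The log2 fold change of MT-ND1 was 0.58 (SE 0.18; edgeR adjusted p = 0.0464), and that of MT-ND6 was 0.76 (SE 0.20; edgeR adjusted p = 0.0282). Without Control replicate 2 they were 0.37 and 0.52, with edgeR adjusted p = 5.04e-05 and 4.72e-07. MT-ND6 is read from the opposite strand to the other mitochondrial subunits. Since the strand setting of the counting is not given, its reads may include RNA of the other strand. Both calls ended when any 1 KO-labelled library was left out, and that of MT-ND1 also without Control replicate 1, with edgeR adjusted p of up to 0.134 for MT-ND1 and 0.0963 for MT-ND6.

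The other 5 genes of complex I had fold changes of similar size that missed the threshold with all libraries. MT-ND5 stood at 5689, 5581 and 5984 CPM in KO-labelled libraries, against 4273, 2229 and 4321 CPM in controls. MT-ND4 stood at 10003, 9795 and 9960.5 CPM in KO-labelled libraries, against 7867, 4200.2 and 8273 CPM in controls. Both encode pump subunits, and in both all KO-labelled libraries lay above all controls. MT-ND2 stood at 3568, 3376 and 3401 CPM in KO-labelled libraries, against 2849.5, 1672 and 2840.0 CPM in controls. MT-ND3 had 1013, 1077 and 1082 CPM in KO-labelled libraries, against 873, 501 and 936 CPM in controls. MT-ND4L, whose gene overlaps the start of MT-ND4, had 1035, 1055 and 1097 CPM in KO-labelled libraries, against 764, 436.5 and 913 CPM in controls. The groups did not overlap for any of the 5. With all libraries their edgeR adjusted p ran from 0.0544 for MT-ND5 to 0.125 for MT-ND3, and without Control replicate 2 from 1.11e-05 for MT-ND5 to 0.00365 for MT-ND3.

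MT-CYB, the cytochrome b of complex III, stood at 4230.1, 3605 and 4464 CPM in KO-labelled libraries, against 3288, 1612 and 3397 CPM in controls. Its log2 fold change was 0.57 (SE 0.24; edgeR adjusted p = 0.129), and 0.30 without Control replicate 2 (SE 0.071; edgeR adjusted p = 0.00418). The groups did not overlap, but KO-labelled replicate 2 and control replicate 3 came close.

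The 3 core genes of complex IV were, per kilobase, the most abundant of the mitochondrial messengers. MT-CO1 had 30778, 29349 and 30219 CPM in KO-labelled libraries, against 23941, 12899.6 and 23194 CPM in controls. MT-CO2 had 8958, 7914 and 8351 CPM in KO-labelled libraries, against 6984, 3713 and 7370.5 CPM in controls. MT-CO3 had 12612, 11816 and 12445 CPM in KO-labelled libraries, against 9617, 5085 and 9605 CPM in controls. In all 3 genes the KO-labelled libraries lay on top, controls 1 and 3 lay together, and Control replicate 2 lay far under both. With all libraries the log2 fold changes were 0.59, 0.48 and 0.60 (edgeR adjusted p = 0.0741, 0.152 and 0.0753), and without Control replicate 2 they were 0.35, 0.23 and 0.36 (edgeR adjusted p = 0.000154, 0.00881 and 0.000103).

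Of the ATP synthase genes, MT-ATP6 stood at 4738, 4412 and 4757 CPM in KO-labelled libraries, against 3690.4, 1897 and 3575 CPM in controls, without overlap. MT-ATP8, by contrast, had 79.4, 64.5 and 54.8 CPM in KO-labelled libraries, against 46.0, 41.5 and 69.7 CPM in controls. Its groups overlapped, and of the 13 mitochondrial members it had the smallest fold change both with all libraries (0.34, SE 0.19; edgeR adjusted p = 0.244) and without Control replicate 2 (0.21, SE 0.14; edgeR adjusted p = 0.273). MT-ATP8 shares 22.2% of its exon bases with MT-ATP6, and counting tools can set reads in such a stretch aside as ambiguous.

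**Figure D1:**
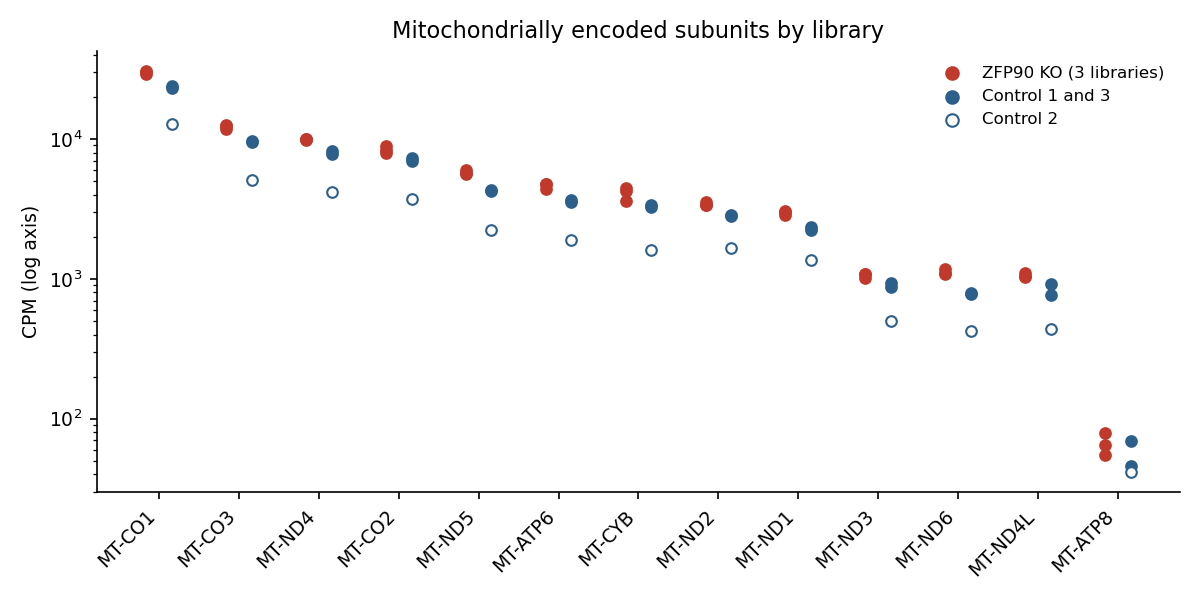
Level of each of the 13 mitochondrially encoded members in every library, as CPM on a log axis, with KO-labelled libraries in red left of controls in blue and Control replicate 2 as an open circle. In every member but MT-ATP8 the lowest KO-labelled library lies above the highest control, and Control replicate 2 is the lowest library in all 13.

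As a summed level, the 13 mitochondrial members reached 86793, 81997 and 86057 CPM in KO-labelled libraries, against 67230.4, 36075 and 67636 CPM in controls. The 61 nuclear subunits together reached 3362, 3308 and 3265 CPM in KO-labelled libraries, against 3193, 3113 and 3176 CPM in controls. Both sums were thus higher in every KO-labelled library than in any control, but by different amounts. The 49 nuclear subunits outside chromosomes 6 to 9 and X summed to 2607, 2585 and 2535 CPM in KO-labelled libraries, against 2488, 2597 and 2468 CPM in controls, so that without the chromosomes low in Control replicate 2 the nuclear groups overlapped. They also overlapped as a plain share of gene reads, at 0.327%, 0.323% and 0.319% in KO-labelled libraries, against 0.319%, 0.332% and 0.317% in controls, while the mitochondrial share was 8.44%, 8.0% and 8.42% in KO-labelled libraries, against 6.72%, 3.85% and 6.75% in controls. The mitochondrial sum averaged 84949 ± 2583 CPM in KO-labelled libraries and 56980 ± 18106 CPM in controls (SD, n = 3 each), a ratio of 1.49, or 1.26 against controls 1 and 3 alone. The nuclear sum averaged 3312 ± 48.9 CPM in KO-labelled libraries and 3160.3 ± 42.1 CPM in controls, a ratio of 1.05, or 1.04 against controls 1 and 3.

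The mitochondrial sum was 25.8, 24.8 and 26.4 times the nuclear sum in KO-labelled libraries, against 21.1, 11.6 and 21.3 times in controls. With nuclear subunits outside chromosomes 6 to 9 and X alone, it was 33.3, 31.7 and 33.9 times in KO-labelled libraries, against 27.0, 13.9 and 27.4 times in controls. The ratio to all nuclear subunits was therefore 1.43 times as high in KO-labelled libraries as in controls, and 1.21 times as high with controls 1 and 3 alone. For the ratio to those outside chromosomes 6 to 9 and X, these were 1.45 and 1.21. These sums are descriptions and carry no test. In bulk RNA, more mitochondrial RNA in each cell and more cells rich in it cannot be told apart.

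**Figure D2:**
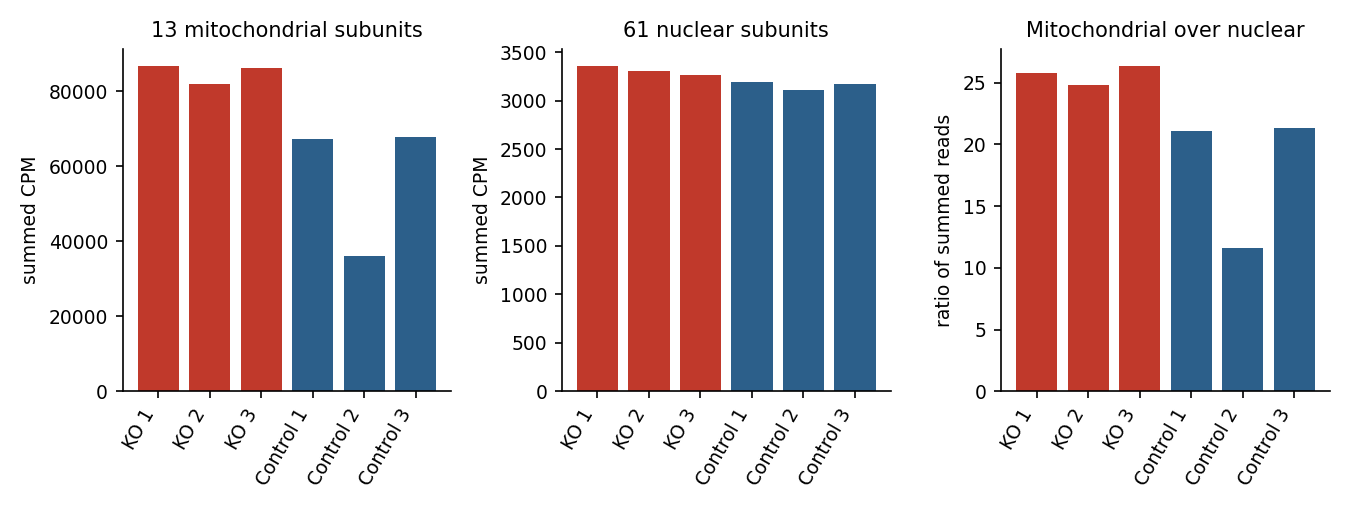
Summed CPM of the 13 mitochondrial members, summed CPM of the 61 nuclear subunits and the ratio of both sums, 1 bar per library, KO-labelled in red and controls in blue, all axes from 0. The mitochondrial bars run from 81997 to 86793 CPM in KO-labelled libraries and from 36075 to 67636 CPM in controls, while the nuclear bars span only 3113 to 3362 CPM over all 6.

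The make-up of the mitochondrial reads moved little while their total moved. MT-CO1 took 35.1% to 35.8% of the 13 members' reads in KO-labelled libraries and 34.3% to 35.8% in controls, Control replicate 2 included. The share of MT-ND6 was 1.27%, 1.33% and 1.36% in KO-labelled libraries, against 1.18%, 1.17% and 1.14% in controls, without overlap. That of MT-ND5 was likewise higher, at 6.55% to 6.95% in KO-labelled libraries and 6.18% to 6.39% in controls. MT-ND2 took a lower share, 3.95% to 4.12% in KO-labelled libraries and 4.20% to 4.63% in controls. MT-CO3 differed by less, at 14.4% to 14.5% in KO-labelled libraries and 14.1% to 14.3% in controls. In the other 9 members the shares of the groups overlapped.

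Other RNA of the mitochondrial genome went the same way, though these rows may not vary separately from the 13 members. Of 24 ribosomal and transfer RNA rows, 3 passed the count filter and all 3 were called higher, as were 9.73% of all genes tested. MT-RNR2, the large ribosomal RNA, stood at 15908, 15015 and 15684 CPM in KO-labelled libraries, against 12224, 7905 and 12116 CPM in controls. MT-RNR1, the small ribosomal RNA, stood at 1423, 1282 and 1604 CPM in KO-labelled libraries, against 968, 658 and 1083 CPM in controls. The proline transfer RNA MT-TP had 171, 152 and 172 CPM in KO-labelled libraries, against 99.99, 50.8 and 117 CPM in controls. In all 3 the lowest KO-labelled library lay above the highest control, as it did for 20.9% of all genes tested. The log2 fold changes were 0.53, 0.67 and 0.89 (edgeR adjusted p = 0.0406, 0.0211 and 0.0313). Control replicate 2 was at 65.0%, 64.2% and 46.8% of the mean of controls 1 and 3 for MT-RNR2, MT-RNR1 and MT-TP. Without it the log2 fold changes were 0.35, 0.49 and 0.61, all called higher, against 13.5% of all genes tested. MT-RNR2 and MT-TP lost the call without any 1 KO-labelled library, MT-TP also without Control replicate 1, and MT-RNR1 without KO-labelled replicate 1 or 3, with edgeR adjusted p of up to 0.124, 0.104 and 0.0877.

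The nuclear copy MTATP6P1 did not follow its mitochondrial parent in Control replicate 2. It stood at 747, 817 and 848 CPM in KO-labelled libraries, against 665, 1052 and 661 CPM in controls. Control replicate 2 was thus its highest library, at 159% of the mean of controls 1 and 3, where the same library was at 52.2% for MT-ATP6. The log2 fold change of MTATP6P1 was 0.02 (SE 0.16; edgeR adjusted p = 0.946), and 0.28 without Control replicate 2 (SE 0.056; edgeR adjusted p = 0.00095). Without that library the copy was thus called higher, as was MT-ATP6 (0.35). Of 175 nuclear copies of mitochondrial genes with a row in the tables, 4 passed the count filter.

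The deficit of Control replicate 2 ran along chromosomes in nuclear subunits as in other genes. Relative to the mean of controls 1 and 3, its median over the 49 subunits on chromosomes 1 to 5 and 10 to 22 was 106%, against 103% for all genes tested there. COX7A2 on chromosome 6 was at 90.9%. NDUFA4, NDUFA5 and NDUFB2 on chromosome 7 had a median of 82.4%, COX6C, NDUFB9 and UQCRB on chromosome 8 one of 77.0%, and NDUFA8 and NDUFB6 on chromosome 9 one of 75.7%. The 3 subunits on chromosome X, COX7B, NDUFA1 and NDUFB11, were at 59.1%, 57.1% and 46.8%, close to the 13 mitochondrial members at a median of 52.9% (range 48.2% to 71.8%). All genes tested had medians of 87.4%, 80.2%, 74.9%, 69.7%, 52.8% and 53.3% on chromosomes 6, 7, 8, 9, X and the mitochondrial genome. The 16 genes tested on the mitochondrial genome include the 13 members, so the likeness of those medians was given in advance. Fold changes of these subunits carry the deficit: the 3 on chromosome X had a median log2 fold change of 0.32 over all libraries and of 0.06 once Control replicate 2 was left out, and the 3 on chromosome 8 one of 0.27 and 0.12. On the mitochondrial genome the same medians were 0.58 and 0.34.

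**Figure D3:**
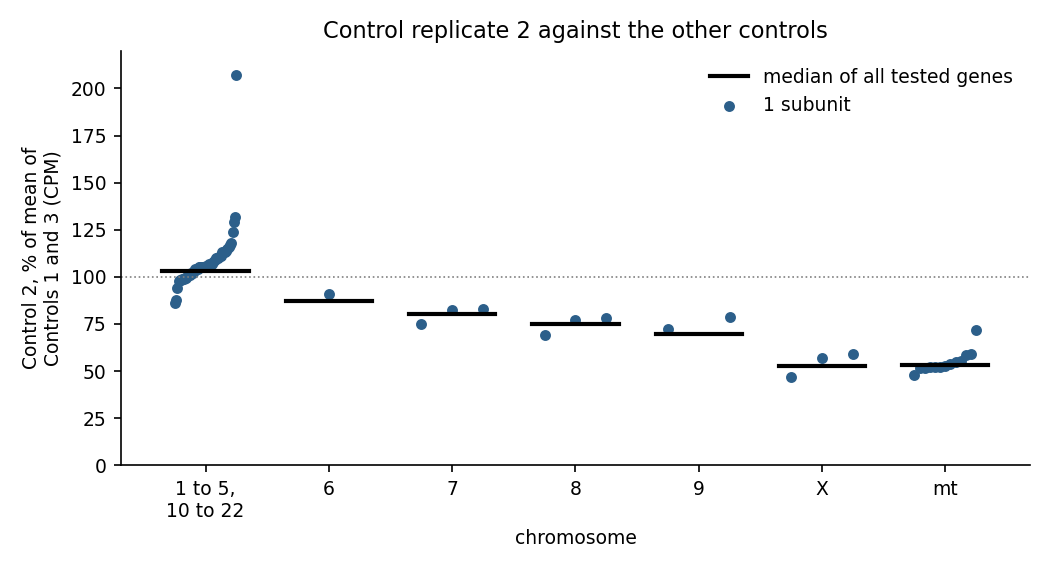
Control replicate 2 as a percentage of the mean of controls 1 and 3, 1 point per subunit, grouped by chromosome, with a bar for the median of all genes tested on it. Subunits on chromosomes 1 to 5 and 10 to 22 centre on 106%, those on X on 57.1% and the 13 mitochondrial members on 52.9%, and the point at 207% is COX7A1, which had 70 reads in all.

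The nuclear members as a whole centred near 0. With all libraries 7 of the 71 were called higher and 3 lower, 14.1% in all against 21.1% of all genes tested, and their median log2 fold change was 0.05 (-0.02 when scaled by library size alone). Without Control replicate 2, 10 were called higher and 3 lower, 18.3% against 27.7%, with a median of 0.05. Among the 61 subunits alone, 8 were called with all libraries (13.1%) and 11 without Control replicate 2 (18%). The groups did not overlap for 26 of the 71, or 36.6%, against 41.2% of all genes tested. Fold changes within 0.3 of 0 on the log2 scale were found in 55 of the 61 subunits (90.2%), in 68.8% of all genes tested and in 77.5% of the 8517 genes with a mean level of 8.79 to 111 CPM, the range of most nuclear subunits. By direction, 9.86% of the 71 were called higher against 9.73% of all genes tested, and 4.23% lower against 11.4%. With Control replicate 2 left out these were 14.1% higher against 13.5%, and 4.23% lower against 14.1%, and the groups did not overlap for 34 of the 71, or 47.9%, against 52.6%. The share called higher was thus near the background, and the share called lower was under it.

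The median log2 fold change was 0.05 for the 36 nuclear subunits of complex I, -0.08 for the 4 of complex II, 0.05 for the 8 of complex III and 0.11 for the 13 of complex IV. The mitochondrial subunits of the same complexes had 0.58 for complex I, 0.57 for MT-CYB of complex III and 0.59 for complex IV. Without Control replicate 2 the nuclear medians were 0.07, -0.07, 0.08 and 0.04 for complexes I to IV, against 0.34, 0.30 and 0.35 for the mitochondrial subunits of complexes I, III and IV. For complex V, MT-ATP6 and MT-ATP8 had a median of 0.47 with all libraries and 0.28 without Control replicate 2, beside 0.03 and 0.07 for 18 nuclear subunits of ATP synthase. In complexes I, III, IV and V the mitochondrial median was thus the higher, as a description without a test.

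**Figure D4:**
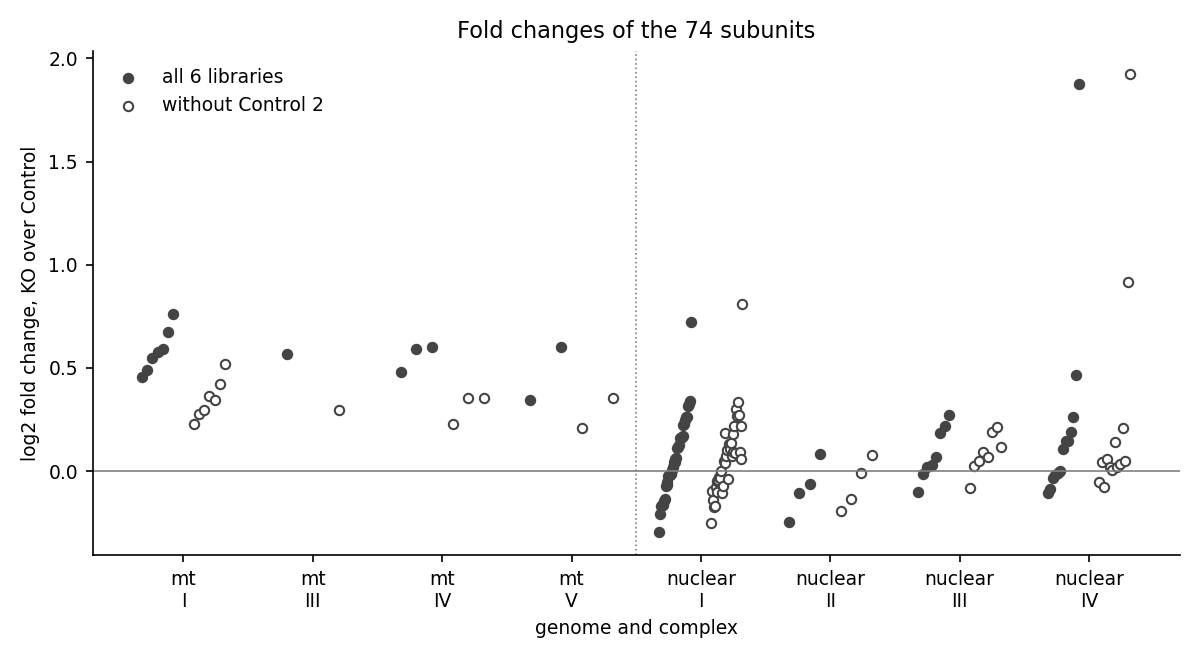
Log2 fold change of KO-labelled libraries over controls for each subunit, by genome and complex, with all 6 libraries (filled) and without Control replicate 2 (open). Mitochondrial subunits lie between 0.34 and 0.76 with all libraries and between 0.21 and 0.52 without that control, while 55 of the 61 nuclear subunits lie within 0.3 of 0 with all libraries and COX6B2 stands at the top.

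Levels between genes were compared per kilobase of transcript. MT-CO1 had 19530.0 CPM per kilobase in KO-labelled libraries and 12978 in controls, while COX4I1, the most abundant nuclear subunit and a regulatory subunit of the same complex, had 297 in KO-labelled libraries and 276 in controls. Next among nuclear subunits of complex IV came COX6C, at 167 CPM per kilobase in KO-labelled libraries and 151 in controls, and COX7C, at 166 and 167. In complex III, UQCRB led with 239 CPM per kilobase in KO-labelled libraries and 197 in controls, followed by the hinge protein UQCRH (129.5 and 127) and the core protein UQCRC2 (123 and 132). In complex I, the accessory subunits NDUFS5 (137 and 117), NDUFB9 (126 and 101) and NDUFS4 (104 and 100.4) led. In complex II, which is wholly nuclear, the membrane anchors SDHC (82.6 and 86.2) and SDHD (68.4 and 81.2) stood above the iron-sulfur subunit SDHB (56.4 and 60.7). This order depends on the transcript lengths used, such as 460 bases for SDHC and 1153 for SDHB. In plain CPM, SDHC (37.98 and 39.64) stood under SDHB (65.04 and 69.98). Of the 4 complex II subunits SDHD had the smallest edgeR adjusted p, 0.0808, with a log2 fold change of -0.25.

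COX6B2 had the largest fold change of the members. It stood at 7.97, 8.30 and 6.02 CPM in KO-labelled libraries, against 2.28, 2.17 and 1.57 CPM in controls, from 132, 117 and 92 reads against 37, 33 and 21. The lowest KO-labelled library was thus well above the highest control. The log2 fold change was 1.87 (SE 0.20; edgeR adjusted p = 0.00038), it was 1.93 without Control replicate 2, and the call held with any 1 library left out (highest edgeR adjusted p 0.00416). COX6B2 lies at chr19:55349306-55354814 on the minus strand (GRCh38) and shares 30.9% of its exon bases with the same-strand gene AC020922.1. Its paralogue COX6B1, whose promoter was shown beside it, stood at 48.8, 48.9 and 52.4 CPM in KO-labelled libraries, against 49.8, 50.5 and 50.02 CPM in controls. The groups of COX6B1 overlapped, and its log2 fold change was -0.001 (SE 0.057; edgeR adjusted p = 0.991). Per kilobase COX6B2 stayed the minor form, at 4.47 CPM in KO-labelled libraries and 1.21 in controls, beside 88.2 and 88.3 for COX6B1.

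NDUFC2, a small accessory subunit of the membrane arm of complex I, stood at 10.3, 12.4 and 10.2 CPM in KO-labelled libraries, against 6.48, 7.37 and 5.97 CPM in controls. Its log2 fold change was 0.73 (SE 0.13; edgeR adjusted p = 0.00582), and the call held with any 1 library left out (highest edgeR adjusted p 0.0262). It shares 16.3% of its exon bases with the readthrough gene NDUFC2-KCTD14, whose reads may be split between both. COX6B2 and NDUFC2 were the only members called at an adjusted p under 0.01 with all libraries.

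The other 5 nuclear members called higher had log2 fold changes of 0.18 to 0.33. NDUFB9 stood at 92.7, 93.97 and 97.7 CPM in KO-labelled libraries, against 81.9, 63.8 and 81.2 CPM in controls (log2 fold change 0.33; edgeR adjusted p = 0.0351). It lies on chromosome 8, where Control replicate 2 was low, and its fold change was 0.22 without that library, with the call kept (edgeR adjusted p = 0.00551). NDUFS6, a zinc-binding accessory subunit, had 40.7, 39.9 and 35.6 CPM in KO-labelled libraries, against 31.4, 33.2 and 33.3 CPM in controls (0.25; edgeR adjusted p = 0.0412). NDUFA3 had 20.5, 21.9 and 22.5 CPM in KO-labelled libraries, against 16.9, 18.2 and 18.96 CPM in controls (0.26; edgeR adjusted p = 0.0491). For complex III, UQCR11 had 91.8, 90.6 and 85.9 CPM in KO-labelled libraries, against 78.1, 79.2 and 78.9 CPM in controls (0.18; edgeR adjusted p = 0.0316). The groups did not overlap in any of these. UQCRQ, a small subunit beside UQCRB, had 28.1, 29.01 and 28.01 CPM in KO-labelled libraries, against 25.2, 24.2 and 23.7 CPM in controls (0.22; edgeR adjusted p = 0.0481), again without overlap. All 5 calls ended without some library: NDUFB9 without any 1 KO-labelled library, NDUFS6 without Control replicate 1 or 3 or KO-labelled replicate 1 or 2, NDUFA3 and UQCR11 without any 1 library but Control replicate 2, and UQCRQ without any 1 of the 6. The highest edgeR adjusted p was 0.119 for NDUFB9, 0.157 for NDUFS6, 0.165 for NDUFA3, 0.124 for UQCR11 and 0.125 for UQCRQ. On the opposite strand, NDUFB9 shares 16.5% of its exon bases with MTSS1 and UQCRQ shares 20.8% with GDF9, and the strand setting of the counting is not given in the sources used here.

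NDUFS5, COX5A, NDUFB10 and COX4I1 were called higher without Control replicate 2, but neither with all libraries nor with any other library left out. NDUFS5 had 77.2, 69.9 and 78.1 CPM in KO-labelled libraries, against 61.4, 70.2 and 60.7 CPM in controls, where Control replicate 2 was the highest control. Its log2 fold change was 0.23 with all libraries (edgeR adjusted p = 0.0597) and 0.30 without that control (edgeR adjusted p = 0.00136). COX5A, NDUFB10 and COX4I1 had fold changes of 0.21, 0.22 and 0.14 without it (edgeR adjusted p = 0.0184, 0.018 and 0.0394) and of 0.19, 0.17 and 0.11 with all libraries (edgeR adjusted p = 0.0548, 0.125 and 0.156).

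Of the 3 nuclear members called lower, 1 was a structural subunit. NDUFB3, an accessory subunit of complex I, had 19.3, 20.4 and 19.2 CPM in KO-labelled libraries, against 23.5, 25.6 and 23.2 CPM in controls (log2 fold change -0.30, SE 0.076; edgeR adjusted p = 0.0257). It shares 19.8% of its exon bases with FAM126B on the opposite strand. COX7A2L, which in place of a catalytic role helps to join complexes III and IV into supercomplexes, had 96.5, 95.7 and 83.4 CPM in KO-labelled libraries, against 114, 116 and 107 CPM in controls (-0.29, SE 0.068; edgeR adjusted p = 0.0185). NDUFA4L2, a paralogue of NDUFA4 known as a hypoxia-induced gene, had 1.09, 1.49 and 1.11 CPM in KO-labelled libraries, against 2.78, 1.97 and 2.31 CPM in controls (-0.95, SE 0.23; edgeR adjusted p = 0.0213), from 18, 21 and 17 reads against 45, 30 and 31. The groups did not overlap in any of the 3. Without Control replicate 2 the fold changes were -0.25, -0.26 and -1.07, all called. The calls ended without Control replicate 1 or KO-labelled replicate 3 for all 3, for NDUFB3 and NDUFA4L2 also without KO-labelled replicate 1, and for NDUFA4L2 also without Control replicate 3 (highest edgeR adjusted p 0.0956, 0.0616 and 0.0887). NDUFA4 itself, on chromosome 7, had 59.5, 59.4 and 52.6 CPM in KO-labelled libraries, against 58.1, 42.3 and 54.7 CPM in controls (edgeR adjusted p = 0.398), with Control replicate 2 lowest.

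**Figure D5:**
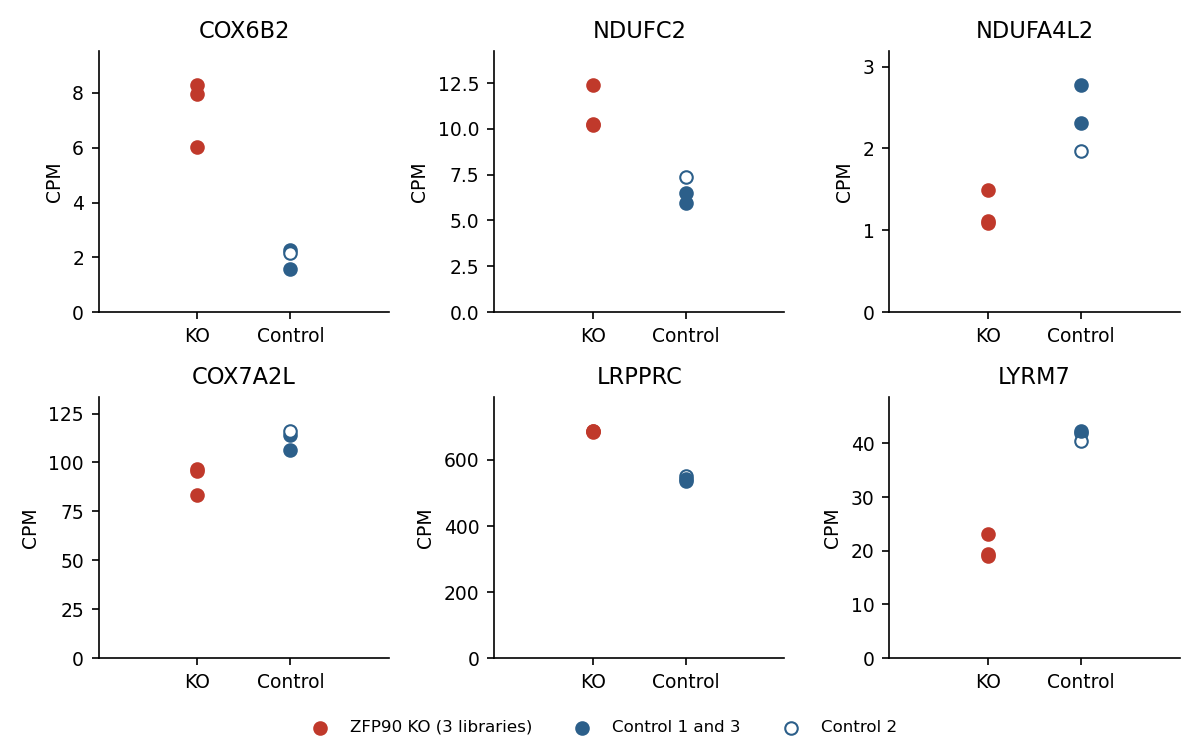
CPM per library, on axes from 0, of COX6B2, NDUFC2, NDUFA4L2, COX7A2L, LRPPRC and LYRM7, with KO-labelled libraries in red left of controls in blue and Control replicate 2 as an open circle. The groups do not overlap in any of the 6, COX6B2, NDUFC2 and LRPPRC being higher and NDUFA4L2, COX7A2L and LYRM7 lower in KO-labelled libraries.

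The 7 pseudogene rows had log2 fold changes between 0.003 for NDUFV2P1 and 0.49 for COX5BP6, and the smallest edgeR adjusted p among them was 0.251. Some are close to their parents in sequence, and reads may be split between them. COX6A1P2 matched COX6A1 at 98.8% of positions, UQCRFS1P1 matched UQCRFS1 at 98.4%, NDUFA5P11 matched NDUFA5 at 97.7% and COX7CP1 matched COX7C at 97.4%, while NDUFV2P1, COX6CP1 and COX5BP6 matched their parents at 87.3%, 85.1% and 82.6%. COX6A1P2 on chromosome 6 had 33.7, 35.1 and 34.6 CPM in KO-labelled libraries, against 32.5, 28.6 and 38.2 CPM in controls, above its parent COX6A1 on chromosome 12 at 21.4, 18.9 and 19.7 CPM, against 21.9, 23.0 and 19.6 CPM. NDUFV2P1 likewise stood at 20.04 ± 0.699 CPM in KO-labelled libraries and 19.98 ± 1.05 CPM in controls, above NDUFV2 at 6.31 ± 0.865 and 6.06 ± 1.23 CPM (SD, n = 3 each). The longest identical run was 210 bases for COX6A1P2 and its parent, and 243 bases for NDUFV2P1 and its parent. Reads that lie wholly in such a run match both genes of a pair, so whether either copy truly exceeds its parent is uncertain. The antisense row NDUFA6-AS1 had a log2 fold change of -0.25 (SE 0.13; edgeR adjusted p = 0.22) and its partner NDUFA6 one of -0.02 (SE 0.064; edgeR adjusted p = 0.858).

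In the wider pathway, read from the same fit, most genes that make or assemble the chain were not called. Over the 8 lists apart from ribosomal proteins, 6.25% of 112 tested genes were higher and 2.68% lower, against 9.73% and 11.4% of all genes tested, and without Control replicate 2 these were 11.6% and 5.36%, against 13.5% and 14.1%. Of 18 nuclear subunits of ATP synthase, 1 was higher, USMG5, at 89.7 ± 1.89 CPM in KO-labelled libraries and 76.9 ± 3.71 CPM in controls (SD, n = 3 each). CYC1, NDUFAB1 and the carrier cytochrome c gene CYCS had a median log2 fold change of 0.13, and 1 of the 3 was called higher without Control replicate 2. Of 15 assembly factors of complex I, 1 was higher, NDUFAF5 (log2 fold change 0.33). Of 19 tested assembly factors of complex IV, 1 was higher, COX19 (0.35, and 0.23 without Control replicate 2, which was at 76.8% of the other controls). Of 10 assembly factors of complexes II and III, SDHAF1, which helps to mature SDHB, was higher (0.40) and LYRM7 lower.

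LYRM7, the chaperone of the Rieske iron-sulfur protein UQCRFS1 in complex III assembly, was the strongest change on these lists. It stood at 18.97, 23.1 and 19.4 CPM in KO-labelled libraries, against 41.97, 40.5 and 42.3 CPM in controls. The KO-labelled libraries thus lay far under all controls. The log2 fold change was -1.02 (SE 0.085; edgeR adjusted p = 0.000106) and the call held with any 1 library left out (highest edgeR adjusted p 0.00158). UQCRFS1, its client, had 71.3 ± 4.27 CPM in KO-labelled libraries and 70.3 ± 2.54 CPM in controls (SD, n = 3 each; log2 fold change 0.02; edgeR adjusted p = 0.843).

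Of 20 genes of mitochondrial RNA processing and stability, 3 were called higher and 2 lower without Control replicate 2, and 1 was called with all libraries. LRPPRC, which with SLIRP stabilises mitochondrial messengers, stood at 688, 685 and 687 CPM in KO-labelled libraries, against 538, 551 and 542.5 CPM in controls. Replicates of a group lay close together and the groups did not overlap (log2 fold change 0.34, SE 0.044; edgeR adjusted p = 0.00124; highest with 1 library left out 0.011). Of 18 genes of mitochondrial transcription and DNA maintenance, 2 were higher, the helicase gene C10orf2 (0.24) and the mitochondrial RNA polymerase gene POLRMT (0.20), and 1 was lower, POLG2 (-0.23), the accessory subunit of the DNA polymerase. Of 9 tested transcriptional regulators of respiratory genes, the coactivator PPARGC1B was lower, at 20.7, 20.8 and 21.5 CPM in KO-labelled libraries, against 29.7, 24.4 and 27.6 CPM in controls (-0.38; edgeR adjusted p = 0.0168). Of 74 tested mitochondrial ribosomal protein genes, 7 were higher (9.46%, against 9.73% of all genes tested). Leaving out Control replicate 2 gave 13 higher and 3 lower (17.6% and 4.05%, against 13.5% and 14.1%). Those with the smallest adjusted p were MRPS30 (0.23), MRPL36 (0.43), MRPS17 (0.45), MRPS26 (0.24) and MRPS2 (0.47). Control replicate 2 was at 67.7% of the mean of controls 1 and 3 for MRPS2, 78.0% for MRPS17 and 84.8% for MRPL36, and without it their log2 fold changes were 0.30, 0.34 and 0.35, all called. Apart from LYRM7 and LRPPRC, each named call of these lists ended with at least 2 of the libraries left out in turn, KO-labelled replicate 3 in every case, the highest edgeR adjusted p running from 0.0507 for C10orf2 to 0.145 for MRPS2.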

How the data were processed

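The authors deposited, for every library, a table of raw read counts keyed by gene symbol. The submitters' processing notes name TopHat2 2.0.11 and HTSeq, and hg19 and GRCh37; the strand setting is not given in the sources used here, so antisense and overlapping genes cannot be told apart. The 5 summary lines, 31.7% to 32.37% of listed reads, entered neither library sizes nor tests. Gene reads numbered 17012910, 14450905 and 15623217 in KO-labelled replicates 1 to 3 and 16215490, 14225911 and 13424356 in controls, so that 3 reads were 0.176 to 0.224 CPM, which covers counting error only.

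All genes were tested together with edgeR 4.0.16 in R 4.3.3 (quasi-likelihood test, TMM scaling, filterByExpr with minimum count 10 and minimum total 15), which kept 16369 genes, or 16693 without Control replicate 2. Calls used a Benjamini-Hochberg adjusted p under 0.05. Fold changes are KO-labelled over control. The script was tested on simulated counts. Alternatives were other scalings, library sizes without mitochondrial rows, no filter, DESeq2 1.42.0, limma-voom (limma 3.58.1), a replicate block, a stricter adjusted p (0.01) and each library left out in turn.

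Members and gene lists were chosen with earlier results of these data known. Named were all mitochondrial members, nuclear members called in either fit, the 3 most abundant per kilobase in each complex, rows next to the read minimum, and called members of each pathway list, up to 5; COX6B1, COX6A1, NDUFA4, NDUFA6, NDUFV2 and UQCRFS1 were added after their values were seen. Lengths are medians of GENCODE release 29 basic coding transcripts. That annotation is on GRCh38 and placed 83 of 84 members by symbol, not NDUFA6-AS1. The list members SDHAF3, SDHAF4 and UQCC3 were read from rows with the older symbols ACN9, C6orf57 and C11orf83. Replicates differed by more than sampling noise (chi-square per degree of freedom 2.2 to 19.8).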

Additional observations from a re-analysis of the deposited data

How the results depend on the processing

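Counts of called members depended on the setting more than their fold changes did. For mitochondrial members called higher (2 with all libraries), leaving out 1 library gave 0 to 12, library size alone 7, no filter on low counts 13, DESeq2 8 and an adjusted p under 0.01 gave 0. For nuclear members called higher (7), leaving out 1 library gave 2 to 10, library size alone 3, DESeq2 3 and an adjusted p under 0.01 gave 2. For nuclear members called lower (3), these were 0 to 4 with 1 library left out, 5 by library size alone and 0 at an adjusted p under 0.01. Over all genes, leaving out 1 library gave 756 to 2261 higher (1593 with all) and 1025 to 2361 lower (1861 with all). Library size alone gave 986 higher and 2343 lower, so that 29.6% of its calls were higher against 46.1%. No filter on low counts gave 2252 higher and 2099 lower over all genes, and DESeq2 gave 1298 higher and 1524 lower. An adjusted p under 0.01 gave 618 higher and 869 lower. The cause of these shifts was not tested, beyond a stricter limit, which lowers counts by construction. Fewer libraries did not always give fewer calls: without Control replicate 2, 2261 genes were called higher and 2361 lower. The median log2 fold change of the mitochondrial members ran from 0.34 without Control replicate 2 to 0.72 without Control replicate 3, and that of the nuclear members from -0.02 by library size alone to 0.06.

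With the replicate number as a block (replicate block), 9 mitochondrial members were called higher, and 5 nuclear members higher and 4 lower. Over all genes the block gave 1623 higher and 1840 lower, against 1593 and 1861 without it. Deviations of same-numbered libraries correlated at 0.06, 0.158 and 0.111, so the numbers were not taken to pair the libraries, although each library correlated best with its own number. Over 36 named members and all settings, 358 of 468 comparisons kept their side of the threshold, 56 lost the call and 54 gained it. Among these 36, signs changed for COX7C, NDUFS4, SDHC and UQCRH, uncalled where they did. Other members near 0, such as COX6B1, NDUFA6, NDUFV2 and UQCRFS1, also changed sign with 1 library left out. Depth limited the rows with few reads, such as COX6CP1, COX7A1 and COX5BP6.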
